A study of Rattus norvegicus with 6 samples.

Results

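The TNF ligand and receptor superfamilies were examined in primary vascular smooth muscle cells of the rat, which form the muscle layer of arteries. The members were all protein-coding rows whose symbol starts with Tnfsf or Tnfrsf and a number, together with a fixed set of family genes that carry other symbols, such as Tnf, Fas, Ltbr, Cd40 and Eda. This gave 41 of the 30945 genes listed, of which 16 encode ligands and the others receptors. RNA sequencing counts from 6 libraries were used, 3 from cells labelled negative control and 3 from cells labelled siRNA_ANK, in a series titled for ANK deficiency. All of them were primary cells of the same labelled type, and no transgene, line or other agent is named. The labels give neither the dose and duration of the siRNA nor whether replicates came from separate animals or cultures. The spread behind the p-values is therefore that between these libraries, and it may be technical.

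TNF ligands are mostly membrane proteins that assemble as trimers, act on neighbouring cells and can be shed by proteases. Their receptors fall into those with a cytoplasmic death domain, which can recruit FADD or TRADD and activate caspases or NF-kB, those that bind TRAF adaptors directly, and soluble or decoy forms that capture ligand without signalling. In the vessel wall the family is known for inflammation, for smooth muscle cell death and growth, and, through osteoprotegerin and RANKL, for its place in the study of vascular calcification.

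Upstream sequences are shown for the member with the largest rise among those that passed the count filter (Tnfsf18) and a death receptor that rose (Fas). Also shown are the member with the highest level per gene length, which fell (Tnfrsf12a), and a TNF receptor that fell (Tnfrsf1b). Each is the 250 bases that end just before the annotated start, 5′ to 3′ on the strand of the gene, from RefSeq on build GRCr8. Capitals mark matches on either strand to TATAAA (the TATA box), TGANTCA (an AP-1 motif), TGACGTCA (the cAMP response element) or the NF-kB motif.

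Tnfsf18: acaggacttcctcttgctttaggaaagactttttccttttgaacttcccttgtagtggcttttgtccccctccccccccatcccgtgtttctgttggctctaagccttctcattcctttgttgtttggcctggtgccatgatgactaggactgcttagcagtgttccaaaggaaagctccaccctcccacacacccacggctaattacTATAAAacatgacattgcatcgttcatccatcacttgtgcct
Fas: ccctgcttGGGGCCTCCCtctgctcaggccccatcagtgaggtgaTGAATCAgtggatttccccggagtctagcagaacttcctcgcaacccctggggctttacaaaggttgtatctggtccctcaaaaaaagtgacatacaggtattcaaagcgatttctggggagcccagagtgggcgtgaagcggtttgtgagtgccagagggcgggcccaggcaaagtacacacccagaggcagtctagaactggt
Tnfrsf12a: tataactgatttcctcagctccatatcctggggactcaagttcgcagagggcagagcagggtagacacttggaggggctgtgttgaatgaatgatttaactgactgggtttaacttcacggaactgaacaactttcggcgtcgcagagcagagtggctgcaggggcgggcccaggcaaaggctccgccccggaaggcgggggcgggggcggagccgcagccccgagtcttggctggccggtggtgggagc
Tnfrsf1b: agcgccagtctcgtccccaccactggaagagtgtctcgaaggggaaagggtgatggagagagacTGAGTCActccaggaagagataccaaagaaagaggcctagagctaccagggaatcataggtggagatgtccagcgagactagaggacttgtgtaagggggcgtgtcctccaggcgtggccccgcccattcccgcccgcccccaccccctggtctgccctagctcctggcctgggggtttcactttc

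The Tnfsf18 stretch (chr13:76366603-76366852, plus strand) holds a TATA box that begins 42 bases before the start. In Fas (chr1:241211905-241212154, plus strand) an NF-kB match begins 242 bases and an AP-1 match 205 bases before the start. In Tnfrsf1b (chr5:162387412-162387661, minus strand) an AP-1 match begins 186 bases before the start, and Tnfrsf12a (chr10:13213649-13213898, minus strand) has no match to these motifs. In the full windows of 250 bases before to 50 bases after the start, which were at hand for 31 members, the NF-kB motif was present in 6 members (19.4%) and in 7.51% of all 33469 windows. The TATA box was present in 8 members (25.8%) against 14.2% of all windows, the AP-1 motif in 3 (9.68%) against 7.33%, and the cAMP response element in 0 against 1.83%. Matches of different motifs did not overlap in the members. Members with an NF-kB match were Cd70, Fas, Lta, Ltb, Tnfrsf8 and Tnfsf14, and only Fas among them passed the count filter. These matches describe letters in a window and show no binding.

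The libraries held 15641259 to 17441548 counts. Ankh, which encodes the pyrophosphate-release protein also called ANK, measured 338 to 367 CPM in the controls and 76.7 to 120 CPM in siRNA_ANK, where CPM are counts relative to the TMM-scaled library total (log2 fold change -1.91 ± 0.16, SE, adjusted p = 0.000180 by edgeR). On the first principal component of all genes the libraries closest to the opposite group were negative control replicate 2 and siRNA_ANK replicate 3, and siRNA_ANK replicate 3 also had the highest Ankh of its group. The labelled cell type was checked with marker genes. Of all 13016 genes tested, 19.9% rose and 20.2% fell in siRNA_ANK (edgeR, adjusted p under 0.05). All 10 smooth muscle markers were tested and 9 rose, with a summed level of 4396 to 5841 CPM in the controls and 7793 to 9285 CPM in siRNA_ANK. Fibroblast markers also moved (6 of 10 rose and 3 fell), from a sum of 18501 to 20334 CPM to a sum of 27694 to 30177 CPM that is mostly the collagen gene Col1a1. Of 10 endothelial markers, 5 were at 0 in all libraries, among them Cdh5, Kdr and Tie1, and the sum was 5.81 to 7.54 CPM in the controls and 18.1 to 22.0 CPM in siRNA_ANK, most of it from Erg, the only one called. The leukocyte gene Ptprc had no count, as had Itgam, Adgre1 and Tyrobp of the 12 macrophage markers, whose sum of 27.4 to 31.3 CPM in the controls and 14.3 to 17.7 CPM in siRNA_ANK was mostly Cd14. Of 9 T and NK cell markers 6 were at 0, with sums of 0.250 to 0.576 CPM in the controls and 0.299 to 0.719 CPM in siRNA_ANK. Of 8 B cell markers 6 were at 0, with sums up to 0.0625 and 0.190 CPM. The part of these marker genes in the results on the family was not tested.

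Within the family, 4 members rose in siRNA_ANK, 4 fell and 9 others were tested without being called (edgeR, adjusted p under 0.05). The 4 that rose were the ligand gene Tnfsf18 and the receptor genes Tnfrsf11b, Fas and Tnfrsf21, and the 4 that fell were the receptor genes Tnfrsf12a, Tnfrsf26, Tnfrsf1b and Tnfrsf10b. Only 17 of the 41 members passed the count filter and were tested. Of these, 8 (47.1%) were called, where 40.1% of all 13016 genes tested were, so the share of called members was near the background. By direction, 19.9% of all genes tested were higher and 20.2% lower. Controls and siRNA_ANK libraries had separate ranges in 12 of the 17 tested members (70.6%), against 51.1% of all genes tested. The median log2 fold change of the tested members was 0.03, and that of all genes tested was 0.01. The sign of the members' median changed when 1 library was left out: it was -0.10 without negative control replicate 2 and -0.07 without siRNA_ANK replicate 1. In such bulk samples, fewer cells of a type and less RNA per cell cannot be told apart. Each of the 8 called members reached the count minimum in all 6 libraries. Among the called members, siRNA_ANK replicate 3 was the siRNA_ANK library nearest to the controls for 6 and replicate 2 for the other 2, Tnfrsf10b and Tnfrsf21. The control library nearest to siRNA_ANK was replicate 1 for 5 of them and replicate 2 for 3.

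**Figure D1:**
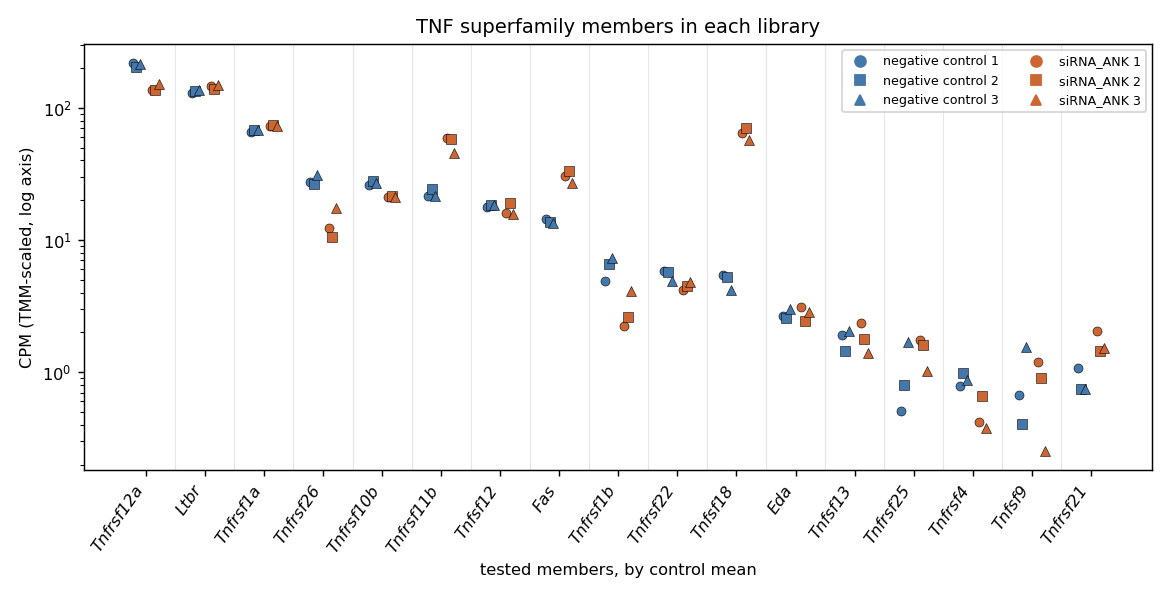
CPM (log axis) of the 17 tested members in each of the 6 libraries, with blue for negative control, orange for siRNA_ANK and a marker shape for the replicate. Tnfsf18 moves from about the level of Tnfrsf22 to near that of Tnfrsf1a. Tnfrsf12a is the highest member in the controls. On this scale, which is not per length, Ltbr lies above it in siRNA_ANK replicates 1 (147 against 137 CPM) and 2 (139 against 138 CPM).

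**Figure D2:**
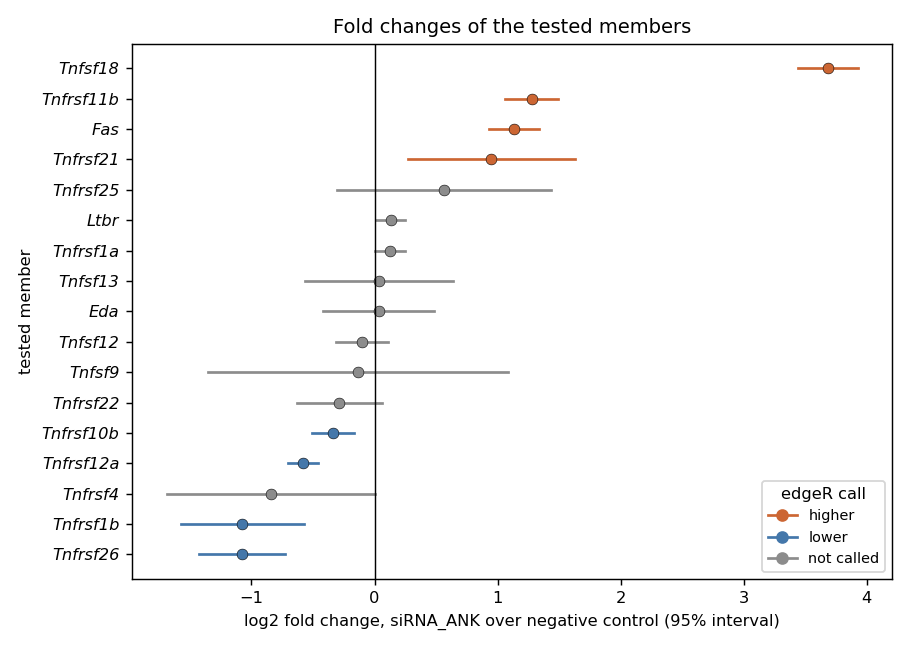
Log2 fold change of siRNA_ANK over negative control for the 17 tested members, with the 95% interval of the edgeR fit as a line and the call as colour. The intervals of the 8 called members lie away from 0, and Tnfsf18 at 3.68 stands far above Tnfrsf11b at 1.28. Those of the uncalled Ltbr and Tnfrsf1a also lie just above 0, since the intervals, unlike the calls, are not adjusted for the number of genes.

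Among the ligand genes, Tnfsf18 rose and none of the other 4 tested was called, where 40.1% of all genes tested were. Tnfsf18 encodes a membrane ligand, also called GITR ligand, that costimulates T cells through the receptor GITR. The gene (ENSRNOG00000026607, chromosome 13, 73831252 to 73843169 in mRatBN7.2, plus strand) had 97, 91 and 67 counts in negative control replicates 1, 2 and 3 and 1072, 1182 and 901 counts in the siRNA_ANK replicates. These are 5.46, 5.24 and 4.19 CPM against 64.3, 70.8 and 57.0 CPM. Every siRNA_ANK library was thus far above every control. The mean was 4.96 ± 0.680 CPM without and 64.0 ± 6.88 CPM with siRNA_ANK (SD, n = 3), a 12.9-fold difference with a log2 fold change of 3.68 ± 0.11 (SE, adjusted p = 2.29e-11 by edgeR) and a 95% interval from 3.44 to 3.93.

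Levels were compared between genes as RPKM, which are CPM per kilobase of the gene length in the files. On that scale Tnfsf18 moved from rank 10 of the 41 members in the controls (2.33 ± 0.320 RPKM) to rank 4 in siRNA_ANK (30.1 ± 3.23 RPKM). In siRNA_ANK its range overlapped that of Tnfrsf1a, its neighbour in the order of levels. It made up 14.3% ± 2.36 (SD, n = 3) of the summed RPKM of all 16 ligand genes in the controls and 69.5% ± 0.470 in siRNA_ANK. The sum of the other ligand genes was 14.0 ± 0.839 RPKM and 13.2 ± 1.56 RPKM (SD, n = 3), with overlapping ranges.

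The other tested ligand genes were Tnfsf12, Tnfsf13, Eda and Tnfsf9. Tnfsf12 encodes TWEAK, the ligand of Tnfrsf12a, and had 315, 317 and 296 counts in the controls and 267, 317 and 247 in siRNA_ANK. These groups overlapped (log2 fold change -0.10, 95% interval -0.32 to 0.11, edgeR adjusted p = 0.438). Eda, the ligand of skin appendage development, had from 45 to 48 counts per control library and from 41 to 52 per siRNA_ANK library (95% interval of the log2 fold change -0.42 to 0.49). Tnfsf13, which encodes the B cell factor APRIL, was at 1.44 to 2.06 CPM and 1.39 to 2.34 CPM (interval -0.56 to 0.64). Tnfsf9, a costimulatory ligand, was at 0.403 to 1.56 CPM and 0.253 to 1.20 CPM, with a wide interval from -1.35 to 1.09.

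The other 11 ligand genes did not pass the count filter. Tnf, which encodes the founding cytokine of the family, had no count in any library, and neither had Ltb, Tnfsf11, Tnfsf14 and Cd70. A count of 0 allows up to 3 counts per library, which is 0.169 to 0.190 CPM across these libraries and covers counting error only. Faslg, the ligand of Fas, had 4, 6 and 4 counts in the controls and 3, 4 and 3 in siRNA_ANK. Tnfsf15, the ligand of Tnfrsf25, had 3, 3 and 5 counts and 9, 3 and 1. Lta had 5 counts in all libraries together, Tnfsf8 had 4, Tnfsf4 had 2, and Tnfsf10, which encodes the death ligand TRAIL, had 1. The differences between groups in these genes were not detectable at this depth.

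Of 5 tested death domain receptors, 2 were higher and 1 lower, where 19.9% of all genes tested were higher and 20.2% lower. Fas, the receptor that triggers apoptosis on binding Fas ligand, rose. It measured 14.3, 13.7 and 13.4 CPM in the control libraries against 30.3, 33.4 and 27.2 CPM in those of siRNA_ANK, and the groups did not overlap. Its mean was 13.8 ± 0.496 CPM without and 30.3 ± 3.10 CPM with siRNA_ANK (SD, n = 3), 2.20-fold higher, with a log2 fold change of 1.13 ± 0.10 (SE, adjusted p = 4.71e-07 by edgeR). Fas (ENSRNOG00000019142) lies on chromosome 1, 231798960 to 231832591 in mRatBN7.2, plus strand.

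Tnfrsf10b, which encodes a death receptor for TRAIL, fell slightly. It was 26.0, 27.8 and 26.9 CPM in the control libraries against 21.2, 21.6 and 21.2 CPM in those of siRNA_ANK, a tight pair of groups with a gap between them. The log2 fold change was -0.34 ± 0.08 (SE, n = 3 per group, edgeR adjusted p = 0.00342), which is 1.26-fold lower. The ratio of Fas to Tnfrsf10b in RPKM was 0.461 ± 0.0297 in the controls and 1.28 ± 0.120 in siRNA_ANK (SD, n = 3). In every control library Fas was thus below Tnfrsf10b per length, and in every siRNA_ANK library above it.

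Tnfrsf21, which encodes death receptor DR6, was called higher at a low level. It had 19, 13 and 12 counts in the controls and 34, 24 and 24 in siRNA_ANK, or 0.856 ± 0.185 and 1.67 ± 0.326 CPM (SD, n = 3). The groups did not overlap, and the log2 fold change was 0.95 ± 0.32 (SE, adjusted p = 0.0266 by edgeR). This call was lost with DESeq2 (adjusted p = 0.0673), without negative control replicate 2 or 3 (edgeR adjusted p = 0.0845 and 0.0879) and without siRNA_ANK replicate 1 (edgeR adjusted p = 0.122). It was also lost without both negative control replicate 2 and siRNA_ANK replicate 3 (edgeR adjusted p = 0.0620).

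Tnfrsf1a, the main receptor of TNF on most cells, was 65.4, 68.5 and 68.1 CPM in the control libraries against 73.0, 74.3 and 72.9 CPM in those of siRNA_ANK. The groups did not overlap, but the difference did not pass the threshold (log2 fold change 0.12 ± 0.06, SE, adjusted p = 0.0986 by edgeR). Tnfrsf25, the receptor of Tnfsf15, had its control replicate 3 among the siRNA_ANK values, with 0.506, 0.806 and 1.69 CPM against 1.74, 1.62 and 1.01 CPM (edgeR adjusted p = 0.292). Edar, the receptor of Eda, had 0, 1 and 4 counts in the controls and 6, 7 and 0 in siRNA_ANK. Ngfr, the neurotrophin receptor with a death domain, had 1, 0 and 0 counts and 3, 6 and 0. Neither of these was tested.

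Of the 4 receptors that bind TRAF adaptors and passed the count filter, 2 fell and 2 were not called. Of all genes tested, 40.1% were called and 20.2% fell. Tnfrsf12a, which encodes the TWEAK receptor Fn14, an injury- and growth factor-induced protein, was the highest member of the family in RPKM. The gene (ENSRNOG00000003546, chromosome 10, 12689890 to 12709045 in mRatBN7.2, minus strand) measured 217, 204 and 215 CPM in the control libraries against 137, 138 and 151 CPM in those of siRNA_ANK. All siRNA_ANK libraries lay below all controls. The mean was 212 ± 6.92 CPM without and 142 ± 7.72 CPM with siRNA_ANK (SD, n = 3), 1.49-fold lower, with a log2 fold change of -0.58 ± 0.06 (SE, adjusted p = 2.36e-06 by edgeR). Its share of the family's summed RPKM was 58.9% ± 1.17 in the controls and 42.4% ± 2.06 in siRNA_ANK (SD, n = 3), and it kept rank 1 in both groups.

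Tnfrsf1b, the TNF receptor without a death domain, which is known from leukocytes and endothelium, fell from a low level. It was 4.89, 6.62 and 7.37 CPM in the control libraries against 2.22, 2.64 and 4.12 CPM in those of siRNA_ANK, where replicate 3 came close to the lowest control. The mean was 6.30 ± 1.27 CPM without and 2.99 ± 0.997 CPM with siRNA_ANK (SD, n = 3), 2.11-fold lower (log2 fold change -1.07 ± 0.23, SE, adjusted p = 0.00213 by edgeR). The ratio of Tnfrsf1a to Tnfrsf1b in RPKM was 22.9 to 33.1 in the controls and 43.9 to 81.7 in siRNA_ANK, without overlap.

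Ltbr, the lymphotoxin beta receptor, was the member with the next highest level after Tnfrsf12a, at 50.3 ± 1.37 RPKM in the controls and 55.1 ± 2.05 RPKM in siRNA_ANK (SD, n = 3). In CPM it was 129, 133 and 136 against 147, 139 and 149, so that the groups did not overlap. The difference lay close to the threshold (log2 fold change 0.13 ± 0.05, SE, adjusted p = 0.0694 by edgeR). It passed with upper quartile scaling (edgeR adjusted p = 0.0441) and with a filter at a mean of 5 CPM (edgeR adjusted p = 0.0421). Tnfrsf4, a costimulatory receptor of T cells, was 0.788, 0.979 and 0.875 CPM in the control libraries against 0.420, 0.659 and 0.380 CPM in those of siRNA_ANK, without overlap but also without a call (edgeR adjusted p = 0.107).

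Tnfrsf11a encodes RANK, the signalling receptor of RANKL, and did not pass the count filter. It had 1, 0 and 0 counts in the controls and 5, 6 and 11 in siRNA_ANK, and was the only untested member whose groups did not overlap. Scaled to library size, the ratio of the 22 siRNA_ANK counts to the 1 control count was 22.9, with a 95% counting interval from 3.70 to 945 that leaves out the spread between replicates. With no filter beyond 1 count over all libraries it was called higher (edgeR adjusted p = 0.00262), while the other 15 members that entered only then were not. Its mean level in siRNA_ANK was 0.166 RPKM, below the 0.383 RPKM of Tnfrsf21, the lowest of the tested receptors there. The other untested TRAF-binding receptors, which act mostly on lymphocytes, had 0 to 9 counts over all libraries: Tnfrsf9 had 9, Tnfrsf17 had 5, Cd40 and Tnfrsf19 had 4 each, Tnfrsf18 had 3, Cd27 had 2 and Tnfrsf13c had 1. Tnfrsf8, Tnfrsf13b and Tnfrsf14 had none.

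The soluble receptor gene Tnfrsf11b rose. It encodes osteoprotegerin, a secreted decoy that binds RANKL and so keeps it from RANK, and that also binds TRAIL. The gene (ENSRNOG00000008336, chromosome 7, 85566520 to 85594538 in mRatBN7.2, minus strand) measured 21.4, 24.2 and 21.5 CPM in the control libraries against 59.0, 58.0 and 45.5 CPM in those of siRNA_ANK. The groups were far apart, with siRNA_ANK replicate 3 the lowest of its group. The mean was 22.4 ± 1.62 CPM without and 54.2 ± 7.52 CPM with siRNA_ANK (SD, n = 3), 2.42-fold higher, with a log2 fold change of 1.28 ± 0.10 (SE, adjusted p = 3.99e-07 by edgeR). In RPKM its level was 7.32 ± 0.531 and 17.7 ± 2.46 (SD, n = 3), rank 7 in the controls and rank 5 in siRNA_ANK.

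Tnfrsf26 and Tnfrsf22 are neighbouring, related genes on chromosome 1, with 17035 bases between them. Related copies can share reads, so that counts could be split between them. Tnfrsf26 was 27.4, 26.4 and 31.2 CPM in the control libraries against 12.2, 10.5 and 17.5 CPM in those of siRNA_ANK, and fell 2.11-fold (log2 fold change -1.08 ± 0.16, SE, n = 3 per group, edgeR adjusted p = 0.000329). Again siRNA_ANK replicate 3 was nearest to the controls. Tnfrsf22, which in the mouse encodes a decoy receptor for TRAIL, was at 103, 99 and 79 counts against 70, 75 and 76, with separate ranges but no call (edgeR adjusted p = 0.182).

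Ligands and receptors were then set side by side. Of 22 pairs on a textbook list whose 2 partners are both members, only Tnfsf12 with Tnfrsf12a had both partners tested. The list is not complete and leaves out Tnfsf10 with Tnfrsf22. In 12 pairs the receptor alone was tested, in 5 the ligand alone and in 4 neither. Tnfsf18 is the clearest case of a ligand without its receptor: Tnfrsf18, which encodes GITR, had 1, 1 and 0 counts in the controls and 0, 0 and 1 in siRNA_ANK. In the TWEAK pair the ligand was at 11.2 ± 0.245 and 10.5 ± 1.14 RPKM while the receptor went from 199 ± 6.49 to 133 ± 7.24 RPKM (SD, n = 3). For RANKL, the decoy receptor gene had 344 or more counts in every library, whereas the ligand had no count. Receptors of TNF and TRAIL were likewise present with 0 and 1 counts of Tnf and Tnfsf10 over all libraries.

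**Figure D3:**
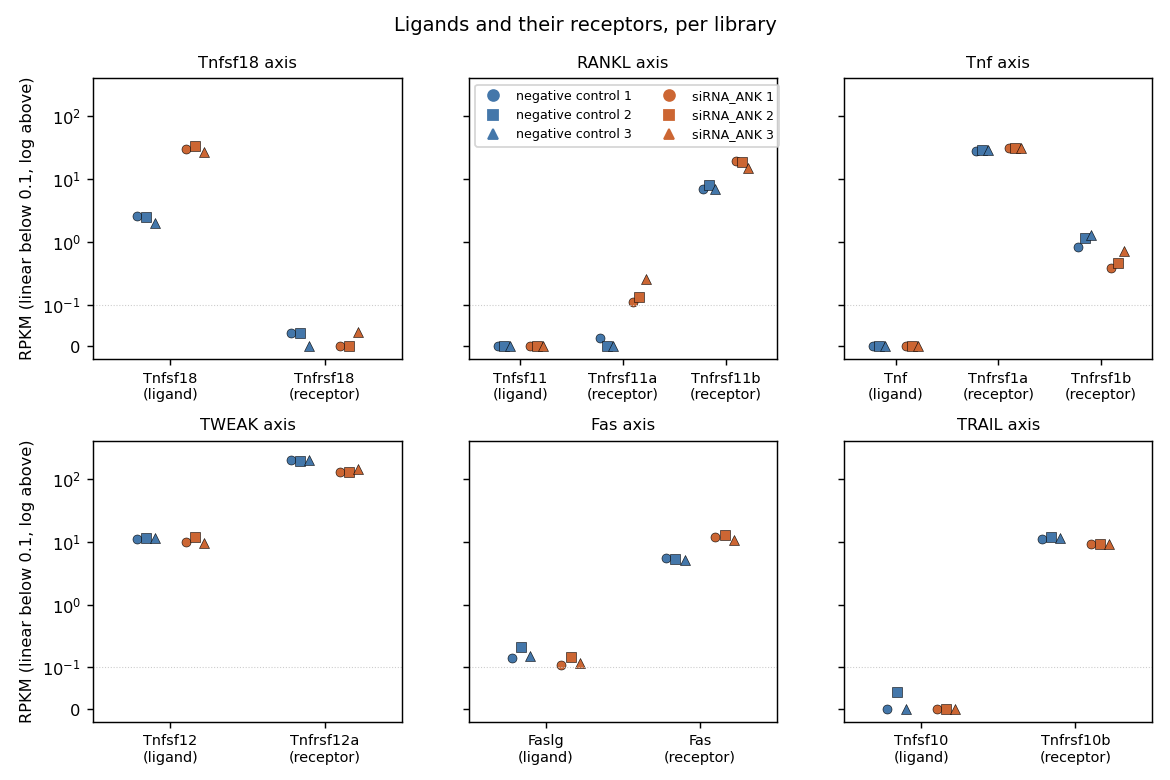
RPKM of ligands and receptors in each library for 6 ligand-receptor axes, on an axis that is linear below 0.1 and logarithmic above. Blue marks negative control and orange siRNA_ANK; Tnf and Tnfsf11 lie at 0 in all libraries, and Tnfsf18 is high in siRNA_ANK while Tnfrsf18 stays below 0.1.

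The order of levels changed between the groups. In the controls it ran from Tnfrsf12a over Ltbr, Tnfrsf1a, Tnfrsf10b, Tnfsf12, Tnfrsf26, Tnfrsf11b, Tnfrsf22, Fas and Tnfsf18 to the members near or below 1 RPKM. The ranges of Tnfrsf10b and Tnfsf12, of Tnfsf12 and Tnfrsf26, and of Tnfrsf22 and Fas overlapped. Within each single control library these neighbours nevertheless kept that order, and their differences were not tested. In siRNA_ANK the order was Tnfrsf12a, Ltbr, Tnfrsf1a, Tnfsf18, Tnfrsf11b, Fas, Tnfsf12, Tnfrsf10b, Tnfrsf22 and Tnfrsf26. There the ranges of Tnfrsf1a and Tnfsf18, of Fas and Tnfsf12, and of Tnfrsf22 and Tnfrsf26 overlapped. The summed RPKM of all receptor genes was 321 ± 5.42 in the controls and 270.4 ± 6.16 in siRNA_ANK (SD, n = 3), and that of the ligand genes was 16.3 ± 0.530 and 43.3 ± 4.78. Within the receptor sum, Tnfrsf12a alone went from 199 ± 6.49 to 133 ± 7.24 RPKM, a larger fall than that of the sum. The lower sum is therefore no fall of the receptor genes in general.

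Neighbouring members on a chromosome were examined where the gap was at most 95145 bases. Both genes were tested only for Tnfrsf26 with Tnfrsf22, Tnfsf13 with Tnfsf12 and Ltbr with Tnfrsf1a. None of these pairs had both genes called. Of the single genes in them only Tnfrsf26 was called, where 40.1% of all genes tested were called. So few pairs cannot show whether neighbours change together. Ltbr and Tnfrsf1a lie 29281 bases apart on chromosome 4, and neither was called. Tnfsf13 and Tnfsf12 lie 828 bases apart on chromosome 10, also without a call. Tnfrsf1b, which fell, is 18979 bases from Tnfrsf8, which had no count. Tnfsf4 lies 84464 bases from Tnfsf18 and had 0 counts in the controls and 0, 2 and 0 in siRNA_ANK. On chromosome 20, Lta, Tnf and Ltb are separated by 1152 and 2908 bases and together had 5 counts, all of them of Lta.

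Genes that carry the signal from the receptors moved in both directions. Of 56 tested genes of TNF receptor signalling (adaptors, kinases, caspases, ubiquitin enzymes, NF-kB factors and sheddases), 14 rose (25.0%) and 11 fell (19.6%), close to the background shares, and their median log2 fold change was 0.04. Leaving out 1 library changed these counts: 9 rose and 7 fell without negative control replicate 1, and 8 rose without siRNA_ANK replicate 1. The most clearly lower were Ripk3 and Cflar. Ripk3, the kinase of necroptosis, fell from 75.6 ± 3.85 to 36.5 ± 4.85 CPM (edgeR adjusted p = 4.38e-07), and its substrate Mlkl was also lower. Cflar, which encodes the caspase-8 inhibitor FLIP, fell from 51.5 ± 1.28 to 32.4 ± 2.81 CPM (edgeR adjusted p = 7.87e-06). Adam10, a sheddase of membrane proteins, the deubiquitinase gene Cyld and the kinase gene Tbk1 fell 1.32-fold, 1.28-fold and 1.31-fold, and the death domain adaptor gene Fadd fell 1.26-fold.

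On the higher side, Tnfaip3, which encodes the NF-kB inhibitor A20, rose from 5.74 ± 0.773 to 11.6 ± 1.10 CPM (SD, n = 3, edgeR adjusted p = 5.72e-05). Madd, a death domain protein that binds Tnfrsf1a, rose 1.78-fold and the kinase gene Map3k5 1.64-fold. Nfkb1, an NF-kB subunit gene, and Nfkbie, an inhibitor of NF-kB, rose 1.22-fold and 1.35-fold. The adaptor and enzyme genes Tradd, Traf2, Ripk1, Casp8 and Birc3 were tested and not called (edgeR adjusted p = 0.405, 0.488, 0.914, 0.162 and 0.425).

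Known target genes of TNF and NF-kB included adhesion molecules and cytokines that rose. Of the 36 genes on this list, only 22 passed the count filter, and 7 had no count in any library. Of the 22 tested, 12 rose (54.5%) and 3 fell (13.6%), beside background shares of 19.9% and 20.2%. The median log2 fold change was 0.67 (0.43 where only genes averaging 5 CPM or more were tested). The adhesion molecule genes Vcam1 and Icam1 rose from 269 ± 14.9 to 590 ± 41.0 CPM (edgeR adjusted p = 8.01e-09) and from 48.9 ± 2.22 to 74.8 ± 2.01 CPM. Il15, which encodes a cytokine for NK and memory T cells, rose 2.38-fold, and Tnfaip6, a hyaluronan-binding protein, 1.85-fold. Cx3cl1, the membrane-bound chemokine fractalkine, rose 6.37-fold from 0.618 ± 0.337 to 3.94 ± 1.01 CPM (SD, n = 3, edgeR adjusted p = 2.91e-05). The 3 that fell were Ptgs2, the inducible cyclooxygenase, by 1.69-fold, Ninj1, a protein of membrane rupture, by 1.82-fold, and Tap1, the peptide transporter of antigen presentation, by 1.60-fold. The list was drawn up with results on some of these genes known, so its direction is no independent evidence.

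**Figure D4:**
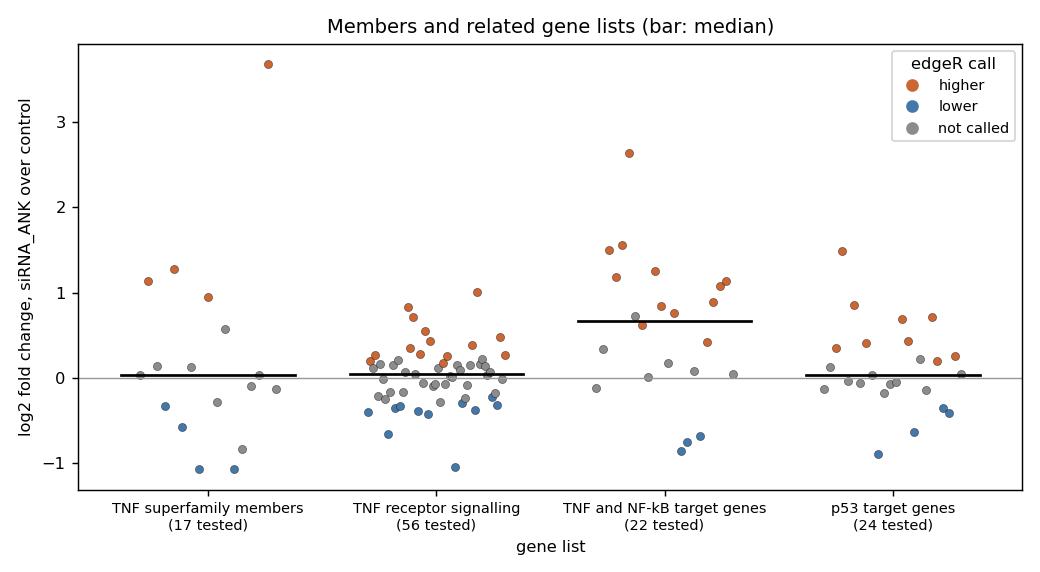
Log2 fold change of each tested gene for the family and 3 related lists, with the edgeR call as colour and the median of each list as a bar. The medians of the family, the signalling list and the p53 target list lie near 0, and that of the TNF and NF-kB target list at 0.67.

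The fold changes of the called members were compared across 14 other ways of processing, or 13 for members that a stricter filter left out. Tnfsf18, Tnfrsf11b, Fas, Tnfrsf10b, Tnfrsf12a, Tnfrsf1b and Tnfrsf26 were called in the same direction wherever they were tested. Over these settings the log2 fold change ranged from 3.58 to 3.80 for Tnfsf18, from 1.21 to 1.45 for Tnfrsf11b and from 1.06 to 1.20 for Fas. That of Tnfrsf12a ranged from -0.65 to -0.56, that of Tnfrsf1b from -1.37 to -0.90 and that of Tnfrsf26 from -1.36 to -0.93.

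**Figure D5:**
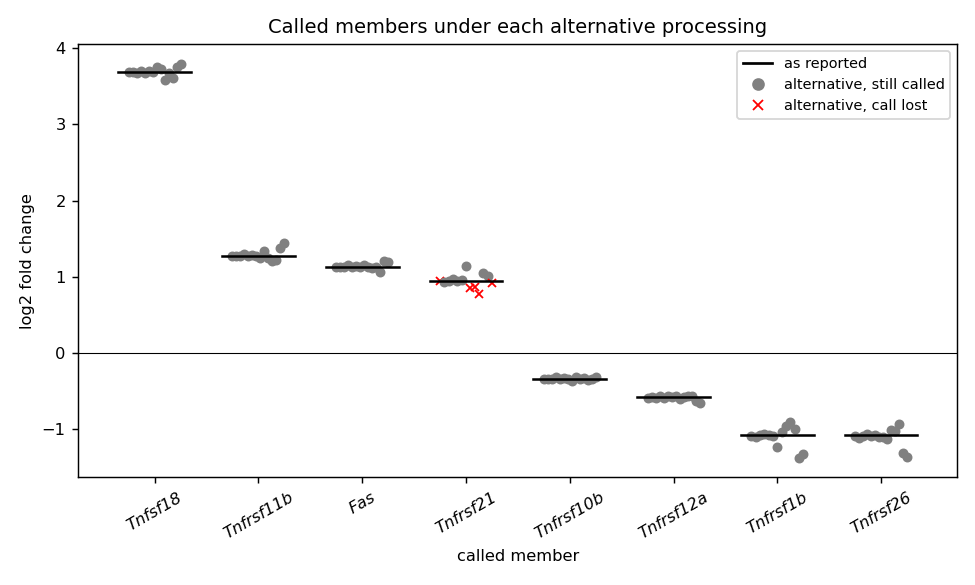
Log2 fold change of the 8 called members under each other way of processing (points) and as reported (bars), with red crosses where the call was lost. Crosses appear for Tnfrsf21 alone, between 0.78 and 0.95.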

How the data were processed

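Each library has a file of raw counts for every gene, which the authors deposited without normalization beside a column of gene lengths in bases. The tools named per the submitters' processing notes are featureCounts 1.5.0-p3 and DESeq2, and the build is mRatBN7.2. Neither aligner nor strand setting is given in the sources used here, so reads of overlapping genes cannot be told apart.

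The whole table was fitted in R 4.3.3 by edgeR 4.0.16: filterByExpr (minimum count 10, minimum total 15), TMM scaling, the robust two-sided quasi-likelihood test and Benjamini-Hochberg adjustment over all 13016 genes tested. The SE is the size of the log2 fold change over the square root of F, and 95% intervals use the moderated degrees of freedom. A permutation test of 3 against 3 cannot go below 0.1 and was not used. Same-group libraries differed beyond sampling noise (chi-square per degree of freedom 2.83 to 12.3). The steps were tested on simulated data.

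The members and lists were chosen with earlier results of these data known. All called members are named with each library's values, uncalled tested members with ranges or values, untested ones with counts, and of each list up to 5 called genes per direction by adjusted p; Fadd, Mlkl and the uncalled signalling genes named were added after their values were seen. Of 64 signalling, 36 target and 26 p53 symbols, 59, 36 and 25 were matched. Alternatives were DESeq2 1.42.0, limma-voom (limma 3.58.1), other scalings and filters, the replicate number as a block and leaving out libraries. Leaving out 2 libraries together was added after seeing the data. Promoters come from RefSeq (GRCr8), a build other than that of the counts.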

Additional observations from a re-analysis of the deposited data

How the results depend on the processing

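The counts of members called (4 higher and 4 lower) stayed within 1.5 times under all 14 other settings: 3 to 5 higher and 3 or 4 lower. When single libraries were left out, 3 to 4 members were higher. With DESeq2, 3 members were higher, and with a filter at a mean of 5 CPM, which leaves 9 members to test, 3 were lower. Without both negative control replicate 2 and siRNA_ANK replicate 3, 3 members were higher and 4 lower, and 17 and 15 signalling genes. In the signalling list the leave-one-out counts ran from 8 to 16 higher and from 7 to 13 lower. Directions turned for uncalled ligand genes alone: leaving out single libraries, the log2 fold change ranged from -0.17 to 0.20 for Tnfsf13, from -0.05 to 0.12 for Eda and from -0.57 to 0.54 for Tnfsf9, and it was -0.02 for Eda without the pair of libraries named above. The signs that turned were those of Tnfsf13 and Eda without negative control replicate 2 (-0.11 and -0.0068) or siRNA_ANK replicate 1 (-0.17 and -0.0502), and of Tnfsf9 without negative control replicate 3 (0.54) or siRNA_ANK replicate 3 (0.27). The cause was not tested. With the replicate number as a block, 4 members were higher and 4 lower, and 2579 and 2631 of all genes. Same-numbered libraries share only a number: their deviations from the group means correlated at -0.03, 0.06 and 0.04, and not every library correlated best with its own number. The count filter left out 24 members; with no filter beyond 1 count, 33 members were tested.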

Other observations

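Fas and Tnfrsf10b are textbook target genes of p53, and other p53 target genes moved in both directions in siRNA_ANK. Of 24 tested, 9 rose (37.5%) and 4 fell (16.7%), beside 19.9% and 20.2% of all genes tested, with a median log2 fold change of 0.04. Btg2, an antiproliferative gene, rose from 15.5 ± 2.94 to 43.4 ± 1.94 CPM (SD, n = 3, edgeR adjusted p = 2.40e-07), and Cdkn1a, which encodes the cell cycle inhibitor p21, rose from 45.2 ± 4.44 to 82.1 ± 6.77 CPM. Sesn1, Ddit4 and Plk2 rose 1.65-fold, 1.32-fold and 1.61-fold. Those that fell were Pmaip1, which encodes the apoptosis factor NOXA, by 1.55-fold, Gadd45a by 1.86-fold, Tp53inp1 by 1.33-fold and Tigar by 1.28-fold. Mdm2, Ccng1 and Zmat3, chosen after their values were seen, were tested and not called (edgeR adjusted p = 0.323, 0.607 and 0.690).

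Within 1000000 bases on either side of Tnfsf18, 14 other genes were tested, of which 2 rose, 3 fell and 9 were not called, where 40.1% of all genes tested were called. The genes that rose there were Prdx6 and Rabgap1l, with log2 fold changes of 0.38 and 0.24, against 3.68 for Tnfsf18. Those that fell were Ankrd45 (-1.10), Rc3h1 (-0.48) and Suco (-0.44).

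A row with no symbol that is described as ectodysplasin A2 receptor (ENSRNOG00000013018) fell outside the rule on symbols. It had 192, 128 and 134 counts in the controls and 172, 156 and 127 in siRNA_ANK, and was not called (log2 fold change 0.06, edgeR adjusted p = 0.788). The row described as CD40 ligand had no count in any library.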
